A study of Mus musculus with 13 samples.

Results

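The kinesin and centromere protein genes were followed across stem cells of the mouse small intestine, their descendants, villus epithelium and hair follicle cells. Members were all genes of the array annotation whose symbol begins with Kif and a digit or with Cenp and a letter, with 1 probe set per gene. The rule found 58 genes of the 17097 that had a probe set naming only that gene. Of these, 37 were kinesins and 21 were centromere proteins. The kinesins were divided into 12 mitotic, 16 transport and 9 other kinesins, and the centromere proteins into 17 of the inner centromere, 2 of the outer kinetochore (Cenpe and Cenpf) and 2 with other known roles (Cenpj and Cenpv).

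All 13 arrays came from C57BL/6 mice of the genotype Lgr5-EGFP-ires-CreERT2, in which the Lgr5 promoter drives GFP and an inducible Cre recombinase. GFPbright denotes the intestinal cells with the highest GFP (4 arrays), GFPdim the intestinal cells with lower GFP (3 arrays), villus the epithelium of the villi (3 arrays), and hair follicle GFPdim the GFPdim cells sorted from hair follicles of the skin (3 arrays). The submitters describe 3 sorts that each combined 3 mice. The titles of the sorted arrays carry more than 3 sort codes, and this difference was not reconciled. No label gives an age, and no label or method settles whether villus cells passed a GFP gate.

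Groups follow the sample titles and source names. A further label field, on Lgr5 level, names the opposite level for GFPbright 2, GFPdim 2 and GFPdim 3, and a high level for villus and hair follicle cells. Lgr5 itself read 532.8 to 793.1 on GFPbright arrays, 12.6 to 66.1 on GFPdim, 4.8 to 6.8 on villus and 478.8 to 687.1 on hair follicle arrays, so the intestinal arrays follow their titles. All 5 measured enterocyte markers were present in villus and in both intestinal GFP groups. They summed to 32005.2 to 33501.1 on villus arrays, 5329.2 to 6814.6 on GFPdim and 1527.8 to 2281.8 on GFPbright. Krt5 and Krt14, keratins of basal skin cells, read 3947.0 or more on every hair follicle array. Values are the deposited intensities on a linear scale. A group was taken as above background where its mean log2 value exceeded 2.98, an intensity of 7.9, the 95th percentile of 86 probe sets of taste, olfactory and vomeronasal receptor genes, here called the receptor level.

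Kinesins are motor proteins that walk along microtubules or remodel their ends. Mitotic kinesins build the spindle, move chromosomes and complete cell division, whereas transport kinesins carry vesicles, organelles and ciliary components in cells whether or not they divide. Centromere proteins mark the place on each chromosome where the kinetochore, the attachment site for spindle microtubules, is assembled. In the intestine, division takes place in the crypts, and cells on the villi no longer divide. Hair follicle stem cells divide only in certain phases of the hair cycle.

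Many genes used late in the cell cycle carry a CHR element (TTTGAA is its common form) and CCAAT boxes close to their start. Promoters of 300 bases, from 250 bases before to 50 after the transcription start, were available from RefSeq (GRCm38.p6) for 52 of the 58 members (not for Kif13b, Kif20a, Kif21b, Kif28, Kif5a and Kif5b), and the first listed was used for the 6 genes with several. The promoters of 4 mitotic kinesins and 3 centromere proteins that the results turn on are shown, 6 with TTTGAA and that of Cenpe without it, together with that of Kif21a, a transport kinesin with another pattern. Each is written 5' to 3' on the strand of its gene, and capitals mark TTTGAA and CCAAT on either strand, which appear as TTCAAA and ATTGG when on the other strand.
Kif11: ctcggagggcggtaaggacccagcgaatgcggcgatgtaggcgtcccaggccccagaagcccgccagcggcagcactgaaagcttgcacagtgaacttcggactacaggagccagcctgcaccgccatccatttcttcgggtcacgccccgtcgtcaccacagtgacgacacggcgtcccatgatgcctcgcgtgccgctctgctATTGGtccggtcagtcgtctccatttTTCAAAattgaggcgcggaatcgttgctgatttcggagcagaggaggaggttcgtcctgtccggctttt
Kif20b: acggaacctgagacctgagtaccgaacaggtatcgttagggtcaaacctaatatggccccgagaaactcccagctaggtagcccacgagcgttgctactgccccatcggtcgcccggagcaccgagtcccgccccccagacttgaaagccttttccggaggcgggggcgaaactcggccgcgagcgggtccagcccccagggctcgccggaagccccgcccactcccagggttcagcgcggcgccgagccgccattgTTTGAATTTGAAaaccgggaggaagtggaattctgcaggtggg
Kif23: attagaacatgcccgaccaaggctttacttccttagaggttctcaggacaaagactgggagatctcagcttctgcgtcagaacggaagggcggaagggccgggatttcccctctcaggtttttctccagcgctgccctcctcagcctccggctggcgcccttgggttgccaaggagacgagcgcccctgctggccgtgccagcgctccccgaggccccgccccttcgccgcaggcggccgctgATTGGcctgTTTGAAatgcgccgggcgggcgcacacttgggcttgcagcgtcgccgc
Kif4: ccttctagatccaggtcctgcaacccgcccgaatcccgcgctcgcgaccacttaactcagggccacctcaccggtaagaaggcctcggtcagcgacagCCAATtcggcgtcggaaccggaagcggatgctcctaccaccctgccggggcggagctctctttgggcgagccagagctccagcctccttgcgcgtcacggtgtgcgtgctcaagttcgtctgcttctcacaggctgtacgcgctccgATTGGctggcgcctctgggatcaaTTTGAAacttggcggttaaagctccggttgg
Cenpa: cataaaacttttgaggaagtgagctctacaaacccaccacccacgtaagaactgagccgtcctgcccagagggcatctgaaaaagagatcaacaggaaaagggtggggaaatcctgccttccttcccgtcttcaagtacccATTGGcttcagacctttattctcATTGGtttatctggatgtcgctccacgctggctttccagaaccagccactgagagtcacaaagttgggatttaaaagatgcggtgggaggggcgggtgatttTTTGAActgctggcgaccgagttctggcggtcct
Cenpe: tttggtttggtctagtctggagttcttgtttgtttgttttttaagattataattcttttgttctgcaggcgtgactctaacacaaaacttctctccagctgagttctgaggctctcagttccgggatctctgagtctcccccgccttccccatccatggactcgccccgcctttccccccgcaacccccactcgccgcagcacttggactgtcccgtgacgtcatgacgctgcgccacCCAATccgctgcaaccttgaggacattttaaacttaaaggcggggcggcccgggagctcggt
Cenpf: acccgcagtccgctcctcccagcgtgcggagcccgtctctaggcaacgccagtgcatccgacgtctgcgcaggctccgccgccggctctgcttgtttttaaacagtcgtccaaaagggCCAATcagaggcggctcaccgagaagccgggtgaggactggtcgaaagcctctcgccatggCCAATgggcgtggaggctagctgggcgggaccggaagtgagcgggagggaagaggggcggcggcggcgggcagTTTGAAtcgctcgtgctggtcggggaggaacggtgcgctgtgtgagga
Kif21a: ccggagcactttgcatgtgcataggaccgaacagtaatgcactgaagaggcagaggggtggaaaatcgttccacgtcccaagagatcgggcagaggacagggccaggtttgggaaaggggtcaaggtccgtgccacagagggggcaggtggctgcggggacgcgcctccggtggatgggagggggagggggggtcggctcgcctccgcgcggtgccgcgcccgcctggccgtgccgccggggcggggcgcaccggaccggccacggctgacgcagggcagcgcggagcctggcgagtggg

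These windows lie at chr19:37376132-37376431 (plus strand), chr19:34922108-34922407 (plus strand), chr9:61946750-61947049 (minus strand), chrX:100625815-100626114 (plus strand), chr5:30666636-30666935 (plus strand), chr3:135212313-135212612 (plus strand), chr1:189688037-189688336 (minus strand) and chr15:91049902-91050201 (minus strand). With the transcription start counted as 1, the leftmost base of TTTGAA lay at -19 in Kif11, at 8 and 14 in Kif20b, at 3 in Kif23, at 20 in Kif4, at 17 in Cenpa and at 3 in Cenpf. The Cenpe window held CCAAT at -12 and no TTTGAA, and the Kif21a window held neither motif.

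TTTGAA was present in 9 of 11 mitotic kinesin promoters (81.8%), in 4 of 17 inner centromere promoters (23.5%), in 1 of 2 outer kinetochore promoters and in 0 of 12 transport kinesin promoters, against 18.1% of 27025 promoters. CCAAT was present in 7 of 11 mitotic kinesin promoters (63.6%), 12 of 17 inner centromere promoters (70.6%), both outer kinetochore promoters and 3 of 12 transport kinesin promoters (25%), against 37.9% of all. The mitotic kinesins were thus the members most often carrying TTTGAA, while the inner centromere genes held it about as often as promoters in general. Among the mitotic kinesins, Kif18a and Kif2b had no TTTGAA in the window. In Kif14 and Kif2c the only TTTGAA lay farther from the start, at -228 and -103. Another 4 motifs were searched on both strands. TTTAAA, which reads the same on both strands, was found in 2 of 11 mitotic kinesin promoters (18.2%, against 13.2% of all), 3 of 17 inner centromere promoters (17.6%) and both outer kinetochore promoters. TTTGAATT, which contains TTTGAA, was found in 3 of these 11 (27.3%, against 1.36%) and in 1 of 17 inner centromere promoters (5.88%). GGCGGGAA was found in 4 of 17 inner centromere promoters (23.5%, against 2.24%) and no mitotic kinesin promoter, and TTTCGCGC in no member (0.318% of all promoters). These are letter matches in a fixed window, described without a test.

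Of the 58 members, 49 were above the receptor level in at least 1 group and 33 in all 4. In GFPbright cells 46 members were above it, in GFPdim 44, in villus 35 and in hair follicle cells 44. The 9 that stayed below in every group were the mitotic kinesins Kif14, Kif15 and Kif2b, the neuronal transport kinesins Kif1a, Kif5a and Kif5c, and Kif28, Kif6 and Kif9. The numbers changed most in villus. Of the 12 mitotic kinesins, 9 were above the level in GFPbright and in GFPdim, 3 in villus and 7 in hair follicle cells, and of the 17 inner centromere genes 12 were above it in villus and all 17 in the other groups. By contrast, 13 of 16 transport kinesins were above the level in GFPbright and 12 in each of the other groups. In hair follicle cells Kif22 and Cenph were above the level on 1 array alone, hair follicle 2 (33.0 and 25.7).

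Hair follicle 2 stood apart from the other hair follicle arrays in the genes of cell division, taken here as the 31 mitotic kinesins, inner centromere and outer kinetochore genes. It was the highest of the 3 in 26 of the 31 (83.9%, against 36.8% of all genes) and in 1 of 16 transport kinesins. Its value over the mean of the other 2 hair follicle arrays had a median of 2.51 over the 31 genes and 0.995 over all genes, and reached 7.46 for Cenpa. The median of the proliferation markers was 194.0 on hair follicle 2 against 37.1 and 15.4 on the others. Its title carries the same sort code as GFPbright 3 and GFPdim 2. The 5 enterocyte markers summed to 35.8 on hair follicle 2 and to 31.5 and 28.6 on the others, and 4 of them were not above the receptor level. Among the intestinal arrays, GFPdim 1 was the lowest of the 3 GFPdim arrays in 21 of the 31 genes (67.7%, against 52.5% of all genes). It was also the lowest in 10 of 16 transport kinesins (62.5%), so it was not low in the genes of cell division alone. Why these arrays stood apart was not tested.

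**Figure D1:**
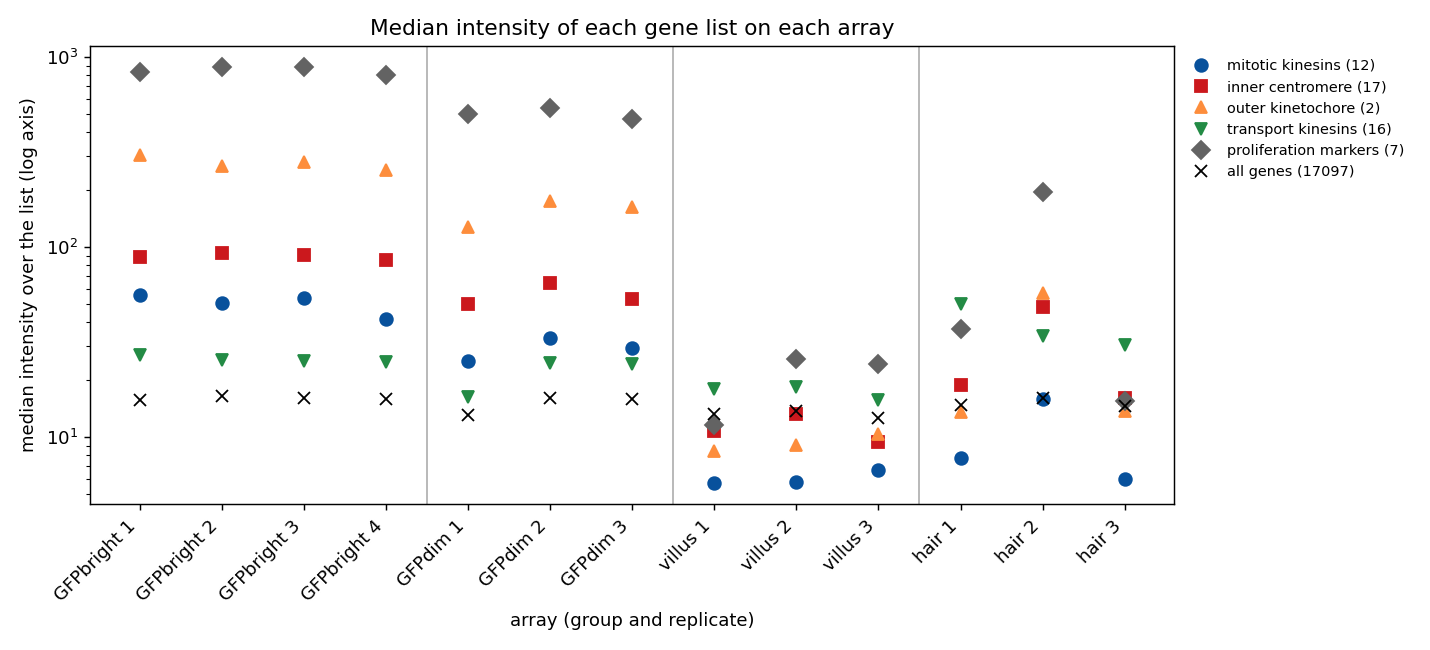
Median intensity (log axis) of 5 gene lists and of all 17097 genes on each of the 13 arrays, with vertical lines between groups. Hair follicle 2 has a proliferation marker median of 194.0 against 37.1 and 15.4 on the other hair follicle arrays and an inner centromere median of 48.4 against 18.7 and 16.1, while the median of all genes is 16.1 against 14.7 and 14.5.

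All 9 mitotic kinesins that were above the receptor level in GFPbright cells were called lower in villus and in hair follicle cells than in GFPbright. This holds for the list as drawn, which has Kif2b and Kif2c but not Kif2a, counted with the other kinesins. Kif2a did not fall in villus, with means of 135.0 in GFPbright, 107.0 in GFPdim and 154.0 in villus. Kif11, the motor that pushes spindle poles apart, read 125.0, 121.4, 124.5 and 93.5 on the GFPbright arrays, 61.5, 75.1 and 74.2 on GFPdim, 5.6, 7.0 and 5.1 on villus and 7.1, 16.2 and 4.1 on hair follicle arrays. The 3 intestinal groups did not overlap, and of the villus and hair follicle arrays only hair follicle 2 exceeded the receptor level. Kif20b, which acts in the final separation of daughter cells, read 231.5, 259.4, 192.8 and 189.5 on GFPbright, 104.6, 132.8 and 133.7 on GFPdim, 4.5, 4.8 and 7.7 on villus and 11.9, 39 and 6.8 on hair follicle arrays. Kif20a, needed for cytokinesis, read 175.8, 171.3, 145.6 and 153.0 on GFPbright, 67.3, 92.4 and 89.9 on GFPdim, 6.5, 5.3 and 8.7 on villus and 11.7, 47.7 and 6.2 on hair follicle arrays. For both genes the intestinal groups were again separate, and hair follicle 2 lay above the other hair follicle arrays. Kif22, which binds chromosome arms, read 115.7 to 148.3 on GFPbright, 88.3 to 108.1 on GFPdim and 7.3 to 14.8 on villus, and 6.5, 33 and 5.8 on hair follicle arrays. Kif4, a motor bound to mitotic chromosomes, read 84, 65.7, 75.9 and 56.5 on GFPbright, 38.1, 55.9 and 43.8 on GFPdim, 7.5, 11.4 and 11.6 on villus and 8.4, 21.1 and 8.4 on hair follicle arrays.

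**Figure D2:**
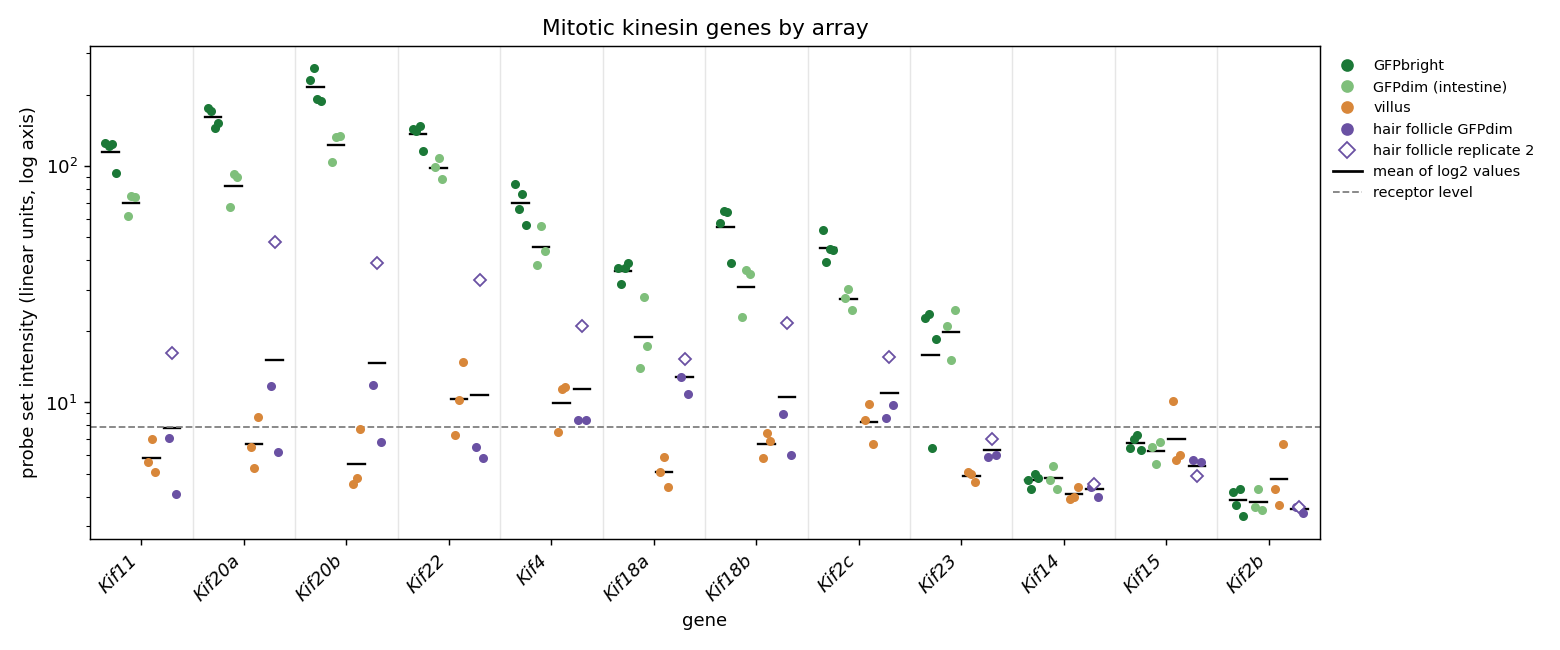
Intensity (log axis) of the 12 mitotic kinesins, 1 point per array, coloured by group, with the mean of log2 values as a black bar and the receptor level of 7.9 as a dashed line; heights are not comparable between genes. For 9 genes villus arrays lie below every GFPdim array, hair follicle 2 (open diamond) is mostly the highest of the hair follicle arrays, and Kif14, Kif15 and Kif2b lie near the receptor level or below it in all groups.

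Most centromere proteins were likewise high in both GFP groups and low in villus. Cenpa, the histone H3 variant that marks the centromere, read 330.7, 298.7, 261.5 and 305.4 on GFPbright, 247.8, 240.8 and 234.3 on GFPdim, 4.9, 9.8 and 5.3 on villus and 16, 119.8 and 16.1 on hair follicle arrays. On this probe set the step between the GFP groups was small, with GFPbright 3 only slightly above GFPdim 1. The drop to villus reached background on 2 of 3 arrays. Cenpf, a large kinetochore protein that appears late in the cell cycle, read 364.8, 333.9, 341.5 and 288.4 on GFPbright, 107.1, 173.7 and 155.7 on GFPdim, 8.7, 9.6 and 8.3 on villus and 12.8, 67.5 and 10.4 on hair follicle arrays. Cenpe, itself a kinesin motor of the kinetochore, read 256.0, 213.8, 225.7 and 223.2 on GFPbright, 150.8, 175.7 and 168.6 on GFPdim, 8.1, 8.5 and 13 on villus and 14.2, 48.5 and 17.9 on hair follicle arrays. In both outer kinetochore genes the 3 intestinal groups were separate. Exceptions among the centromere proteins were Cenpb, which binds a repeat in centromeric DNA and was called in none of the comparisons (37.4 to 71.9 over all arrays), Cenpj, a centriole assembly protein, and Cenpv. They are described with the comparisons.

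**Figure D3:**
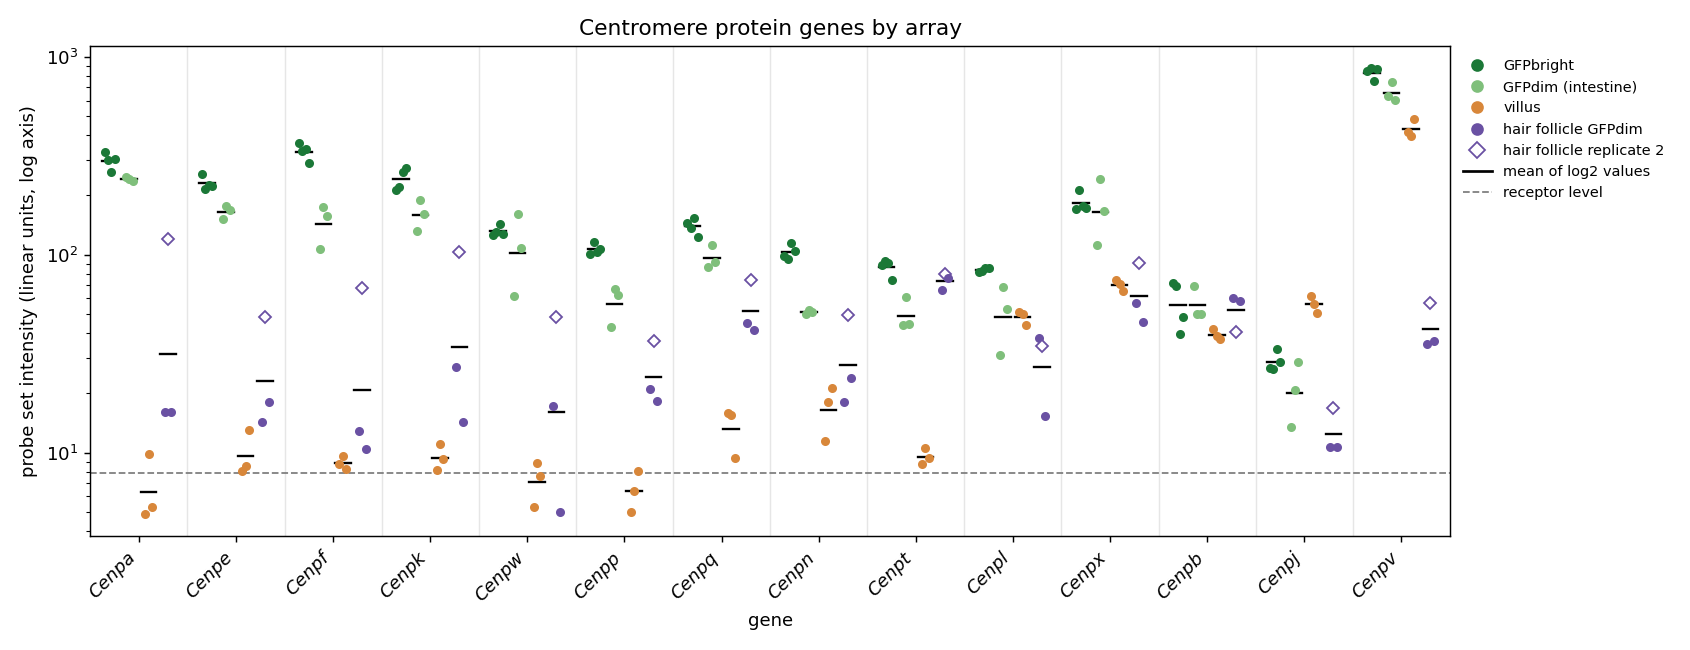
Intensity (log axis) of 14 of the 21 centromere proteins, 1 point per array, with the mean of log2 values as a black bar and the receptor level as a dashed line; heights are not comparable between genes. Cenpa, Cenpe and Cenpf fall to about 10 in villus, Cenpb stays between 37.4 and 71.9, Cenpt is lowest in villus, Cenpj is highest in villus and Cenpv lowest in hair follicle arrays.

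Between GFPbright cells and GFPdim cells the question is what changes in the first descendants of the stem cells. Of the 58 members, 10 were lower in GFPdim (17.2%, against 10.4% of all 17097 genes) and 1 was higher (1.72%, against 6.32%). A member was called at an adjusted p under 0.05 in a limma fit to all genes and arrays, with Benjamini-Hochberg adjustment. In bulk RNA, fewer cells expressing a gene and less RNA per cell cannot be told apart. Among the 31 mitotic kinesins and inner and outer centromere proteins, 7 were lower and none higher, with a median log2 difference of -0.72 (-0.04 over all genes). The transport kinesins had a median of -0.06, with 2 lower (12.5%) and 1 higher (6.25%), near the shares of all genes.

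In 23 of these 31 genes (74.2%) every GFPdim array lay below every GFPbright array, as it did in 17.2% of all genes. Kif18a, which aligns chromosomes at the middle of the spindle, read 37.1, 31.6, 36.9 and 39.1 on GFPbright and 14, 27.9 and 17.3 on GFPdim, without overlap (1.91-fold lower, log2 -0.93 with a standard error of 0.20, adjusted p = 0.00649 from limma). Cenpn, which reads the Cenpa nucleosome, read 98.2, 95.5, 114.1 and 103.7 against 49.9, 52.3 and 51, again without overlap (2.01-fold lower, log2 -1.01, standard error 0.28, adjusted p = 0.0237 from limma). Also lower were Kif2c, a microtubule depolymerase of the centromere (1.65-fold), and the inner centromere genes Cenpt (1.75-fold), Cenpp (1.88-fold), Cenpo (1.71-fold, on a probe set that others of the gene do not follow) and Cenpc1 (1.60-fold). Cenpf had a larger difference, -1.22 (standard error 0.46), with separate groups, and was not called (adjusted p = 0.0943 from limma). Neither was Kif11 at -0.72 (adjusted p = 0.166 from limma) nor Cenpa at -0.31 (adjusted p = 0.793 from limma). A second, dimmer Cenpa probe set was called lower, at -1.08 (adjusted p = 0.016 from limma over probe sets). So was a dimmer Cenpf probe set, at -0.75 (adjusted p = 0.00346 from limma over probe sets), while another Cenpf probe set, at -0.62, was not called.

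How many members passed depended on the fit. For 3 sorts, both a GFPbright and a GFPdim array were made, and with the sort as a replicate block 26 members were lower and 0 higher, among them 22 of the 31 genes above. Cenpf was then called at -1.21 (adjusted p = 0.00546 from limma with the block), Kif11 at -0.70 (adjusted p = 0.0248) and Kif20a at -0.94 (adjusted p = 0.00981). Without GFPdim 1, 6 members were lower (3 of the 31), and without hair follicle 2, which enters only through the shared estimate of spread, 21 were lower (18 of the 31). The median of GFPdim 1 over all genes, 13.1, was below the 16.1 and 15.8 of the other GFPdim arrays. The median of the 31 genes was -0.50 without GFPdim 1 and -0.70 with the block.

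Kif23, a subunit of the centralspindlin complex of the midbody, was the mitotic kinesin with the largest positive difference, 0.32 (standard error 0.35, adjusted p = 0.648 from limma). Its GFPbright arrays read 22.7, 23.7, 6.4 and 18.5 and its GFPdim arrays 21, 15.1 and 24.6, so GFPbright 3 alone stood low. Without GFPbright 3 the difference was -0.12, and a second Kif23 probe set gave -0.84. The direction for Kif23 was thus not settled between these groups.

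Other cell types were unequal between the GFP groups. In GFPdim, 6 of 6 goblet, 10 of 10 enteroendocrine and 5 of 5 enterocyte markers were higher, with the summed goblet markers at 21636.6 to 24119.5 against 1054.6 to 2335.1 in GFPbright. Of the Paneth cell markers 2 of 3 were higher (summed 5024.8 to 9239.9 against 711.0 to 1438.2), and of the tuft cell markers 3 of 5 (summed 72.9 to 141.0 against 30.2 to 50.1). Of 7 proliferation markers, including Mki67 and Top2a, none was called, with a median of -0.50 and 1 at an unadjusted p under 0.05. For that unadjusted limit no share of all genes is given here. The part of these cells in the member values was not tested.

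In villus most genes of cell division were lower. Of the 58 members, 34 were lower in villus than in GFPbright (58.6%, against 26.3% of all genes) and 8 were higher (13.8%, against 22.6%). Against GFPdim 28 were lower (48.3%, against 21.3%) and 8 higher (13.8%, against 20.8%). Villus arrays serve in both comparisons, so these are not independent. Of the 31 genes, 27 were lower than in GFPbright and 25 lower than in GFPdim, and none was higher. Their median log2 differences were -2.93 and -2.20, with 0.02 over all genes in both comparisons.

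The largest falls in villus against GFPbright were in Cenpa, at least 35.1-fold (log2 -5.56, standard error 0.53, adjusted p = 5.73e-07 from limma), Kif20b, at least 27.4-fold (log2 -5.30, standard error 0.42, adjusted p = 8.84e-08 from limma), and Cenpf, 37.4-fold (log2 -5.22, standard error 0.46, adjusted p = 2.65e-07 from limma). On dimmer probe sets of these genes the log2 differences were smaller, -2.41 for Cenpa, -1.11 for Kif20b, and -0.98 and -1.31 for Cenpf. Folds are lower bounds where a group was not above the receptor level, because each of its arrays was then set to that level or to its own value, whichever was higher. Cenpk, a subunit of the inner centromere network, read 212.9, 219.4, 259.9 and 274.4 on GFPbright and 8.2, 11 and 9.3 on villus, 25.5-fold lower. Cenpe fell 23.8-fold, Kif20a at least 19.7-fold, Cenpw, a histone-fold partner of Cenpt, at least 16-fold, Kif11 at least 14.6-fold and Kif22 13.2-fold. Other probe sets gave log2 differences of -4.06 for Cenpe, -3.18 for Cenpw, -1.41 for Kif11 and -2.87 for Kif22. Smaller falls were in Cenpx (2.59-fold), Cenpc1 (2.58-fold), Cenpo (2.02-fold) and Cenpl (1.74-fold). The 4 genes of the 31 that were not called were Cenpb and the 3 kinesins at background, Kif14, Kif15 and Kif2b.

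Against GFPdim, Cenpa was at least 28.4-fold lower (log2 -5.25, standard error 0.57, adjusted p = 3.48e-06 from limma), Cenpe 17.1-fold, Cenpk 16.8-fold, Cenpf 16.1-fold and Kif20b at least 15.6-fold. A second, dimmer Cenpa probe set gave -1.33 here and -1.08 between the GFP groups. Against GFPdim, dimmer probe sets gave -0.23 and -0.69 for Cenpf and -0.98 for Kif20b, none of them called. On the Cenpa probe set used, nearly all of the fall from GFPbright to villus lay between GFPdim and villus. Cenpl, which pairs with Cenpn, differed in this respect, with 81.7 to 85.7 on GFPbright, 31, 68.8 and 53.1 on GFPdim and 51.1, 50.1 and 44 on villus, and a difference between the last 2 groups near 0 (standard error 0.31, adjusted p = 0.997 from limma). All 7 proliferation markers were lower in villus than in either GFP group.

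The transport kinesins did not share this fall. In villus against GFPbright, 5 were higher and 5 lower (31.2% each, against 22.6% and 26.3% of all genes), with a median log2 of -0.04. Against GFPdim 4 were higher (25%, against 20.8%) and 2 lower (12.5%, against 21.3%), with a median of 0.15. Kif13b, which carries membrane cargo, read 71, 64.7, 76.6 and 65.5 on GFPbright, 53.3, 70.5 and 86.8 on GFPdim and 203.9, 244.1 and 208.3 on villus, with villus above every other array (3.15-fold over GFPbright, log2 1.65, standard error 0.17, adjusted p = 1.42e-06 from limma). Kif1b, a carrier of mitochondria and vesicle precursors, read 123.1, 129.5, 117.7 and 134.7 on GFPbright, 91.9, 118.1 and 164.2 on GFPdim and 278.6, 285.2 and 301.0 on villus (2.29-fold, log2 1.19, standard error 0.17, adjusted p = 3.13e-05 from limma). In both, GFPbright and GFPdim overlapped and neither gene was called between them. Kif5b, the widely expressed heavy chain of conventional kinesin, was the single member higher in GFPdim than in GFPbright, with 391.5, 381.0, 389.4 and 390.0 against 485.5, 603.6 and 525.8 (1.38-fold, log2 0.47, standard error 0.11, adjusted p = 0.0101 from limma, and 0.056 with the replicate block). In villus it read 620.5, 642.9 and 582.3, 1.58-fold over GFPbright, overlapping GFPdim.

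Kif21b, a motor that also regulates microtubule growth, read 15.2, 15.9, 20.8 and 16 on GFPbright, 15, 27.9 and 26.2 on GFPdim and 83.9, 108.7 and 74.9 on villus (5.23-fold over GFPbright, log2 2.39, standard error 0.27, adjusted p = 3.10e-06 from limma). Lymphocyte markers were present on the same arrays. All 8 of them were higher in villus than in GFPbright, their sum was 1758.2 to 2580.1 in villus against 45.5 to 58.2 in GFPbright, and in GFPbright 7 of the 8, Ptprc among them, were not above the receptor level. Their part in the villus values of Kif21b or of any other member was not tested. In hair follicle cells Kif21b read 61.1, 35.8 and 80.5, where 7 of the 8 lymphocyte markers were not above the receptor level.

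Some transport kinesins were lower outside the stem cell group. Kif12 read 26.7, 22.4, 46.6 and 24.5 on GFPbright and 7.1, 11.3 and 6.1 on GFPdim, where 1 of 3 arrays was above the receptor level, and it was below that level on all villus and hair follicle arrays. It was at least 3.23-fold lower in GFPdim (log2 -1.87, standard error 0.24, adjusted p = 0.000132 from limma), the largest fall of any member between the GFP groups. Kif16b, a motor of early endosomes, read 35.4, 35, 34.8 and 48.5 on GFPbright, 17.6, 21.6 and 22.2 on GFPdim, 19.2, 20.6 and 14.6 on villus and 47.7, 37.4 and 31.3 on hair follicle arrays. It was 1.87-fold lower in GFPdim (adjusted p = 0.00336 from limma) and 2.12-fold lower in villus (adjusted p = 0.000132 from limma), and it did not pass between hair follicle and GFPbright cells (log2 0.01, standard error 0.18). Kif26b, an atypical kinesin counted with the other kinesins, was above the receptor level in GFPbright cells alone (19.5, 10.4, 8.0 and 11.9, against 3.8 to 6.6 on every other array).

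Of the 9 other kinesins, 0 were higher and 1 was lower (11.1%) in GFPdim than in GFPbright, where 6.32% and 10.4% of all genes were. In villus 2 were higher (22.2%) and 1 lower (11.1%), against 22.6% and 26.3% of all genes. In hair follicle cells 4 were higher (44.4%) and 2 lower (22.2%), against 19.4% and 29.1% of all genes. Kif9, called higher in villus and in hair follicle cells, was not above the receptor level in any group, and without hair follicle 3 it was not called in hair follicle cells (log2 0.31, adjusted p = 0.138 from limma). Kif26a read 8.9, 17.5 and 7.0 on hair follicle arrays against 4.9 to 5.3 on GFPbright, at least 1.3-fold higher, with hair follicle 2 the highest. Among the low transport kinesins, Kif3c read 17.9, 15.8 and 13.4 on hair follicle arrays against 10.8 to 12.3 on GFPbright (1.35-fold, adjusted p = 0.0258 from limma, and 0.0611 without hair follicle 2). Kif1c, a motor that acts at the Golgi apparatus and in the cell periphery, read 53.8, 40.1 and 46.6 on hair follicle and 39.9, 46.5 and 31.7 on villus arrays against 25.2 to 32.1 on GFPbright (1.57-fold and 1.31-fold higher). Kif17 was 1.33-fold lower in villus, with 8.3, 8.1 and 9.7 against 10.4, 10.9, 12.4 and 12.5 on GFPbright.

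**Figure D4:**
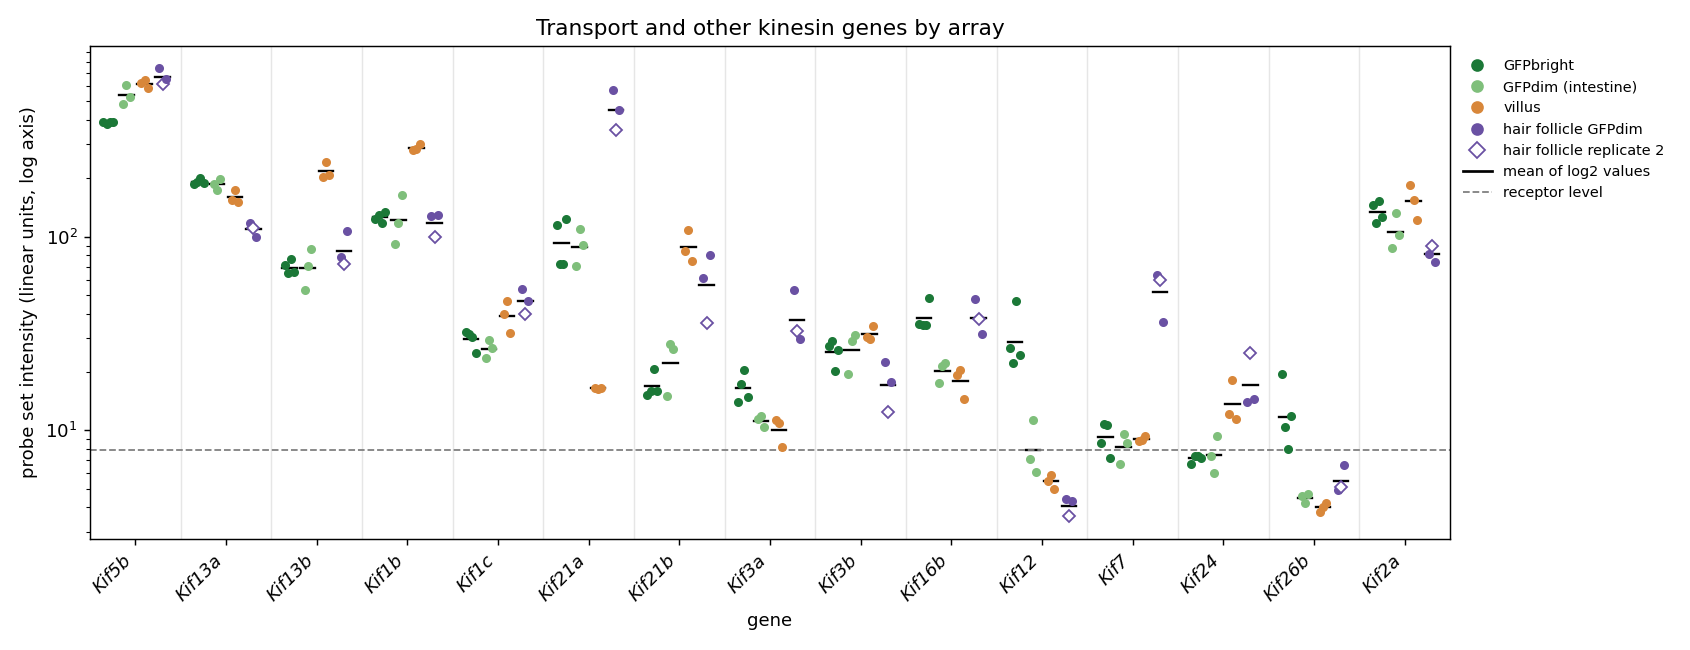
Intensity (log axis) of 11 transport kinesins (Kif5b to Kif12) and 4 other kinesins, 1 point per array, with the mean of log2 values as a black bar and the receptor level as a dashed line; heights are not comparable between genes. Kif13b and Kif1b are highest in villus, Kif21a and Kif7 in hair follicle arrays, and Kif12 and Kif26b in GFPbright arrays.

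Against hair follicle cells the comparison is between stem cell populations of separate tissues that both express Lgr5. Of the 58 members, 33 were lower in hair follicle cells than in GFPbright cells (56.9%, against 29.1% of all genes) and 10 were higher (17.2%, against 19.4%). All but 5 of the 31 genes of the mitotic kinesin, inner centromere and outer kinetochore lists were lower and none was higher, with a median of -2.04 (-0.06 over all genes). The GFPbright arrays are those of the intestinal comparisons. Cenpf fell 15.9-fold (log2 -3.99, standard error 0.46, adjusted p = 4.58e-06 from limma), Kif20b 14.8-fold (log2 -3.88, standard error 0.42, adjusted p = 2.39e-06 from limma) and Kif11 at least 11.5-fold (log2 -3.89, standard error 0.33, adjusted p = 1.75e-07 from limma). Kif22, above the receptor level on hair follicle 2 alone, had a log2 difference of -3.67. Kif20a was 10.6-fold, Cenpe 9.92-fold, Cenpa 9.50-fold and Cenpw 8.16-fold lower. On dimmer probe sets the log2 differences were smaller, -0.76 and -1.54 for Cenpf, -0.85 (not called) for Kif20b, -1.12 for Kif11 and -1.95 for Cenpa. All 7 proliferation markers were lower as well.

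Hair follicle 2 made these falls smaller, in several genes by more than 1.5-fold. Without it the log2 difference from GFPbright was -4.84 in place of -3.99 for Cenpf, -4.59 in place of -3.88 for Kif20b, -4.48 in place of -3.67 for Kif22 and -4.24 in place of -3.41 for Kif20a. It was -4.21 in place of -3.25 for Cenpa and -3.82 in place of -3.03 for Cenpw, and the 6 genes were called in both fits. Without hair follicle 3, the differences of Kif20a and Cenpw were smaller, at -2.77 and -2.19, and both were again called. Kif11 and Cenpe moved less, to -4.42 and -3.85 without hair follicle 2.

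Cenpt was the inner centromere gene that stood near its GFPbright level in hair follicle cells while being low in villus. Cenpt binds centromeric DNA and recruits the outer kinetochore. It read 88.5, 92.7, 90.4 and 74.2 on GFPbright, 43.9, 60.8 and 44.6 on GFPdim, 8.7, 10.5 and 9.4 on villus and 66.1, 79.5 and 75.7 on hair follicle arrays. The hair follicle arrays overlapped GFPbright (log2 -0.23, standard error 0.14, adjusted p = 0.221 from limma) and lay above every GFPdim and villus array. Against villus the difference was 7.74-fold (log2 2.95, standard error 0.15, adjusted p = 5.58e-10 from limma).

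Cenpv went the other way. It read 841.8, 873.5, 751.2 and 861.1 on GFPbright, 628.7, 746.4 and 607.0 on GFPdim, 415.2, 398.0 and 482.5 on villus and 35.5, 57.2 and 36.8 on hair follicle arrays. Cenpv was 19.7-fold lower in hair follicle cells than in GFPbright (log2 -4.30, standard error 0.16, adjusted p = 2.90e-11 from limma) and 1.93-fold lower in villus. Cenpj read 62.1, 56 and 50.8 on villus, above the 26.5 to 33.4 of GFPbright (1.96-fold, adjusted p = 0.00232 from limma) and the 10.7, 16.7 and 10.7 of hair follicle arrays (4.52-fold, adjusted p = 2.26e-06 from limma).

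Several kinesins were highest in hair follicle cells. Of the 16 transport kinesins, 6 were higher there than in GFPbright (37.5%, against 19.4% of all genes) and 3 lower (18.8%, against 29.1%). Kif21a, a motor that limits microtubule growth at the cell cortex, read 114.6, 72.3, 72.1 and 122.7 on GFPbright, 70.2, 108.9 and 90.8 on GFPdim, 16.5, 16.3 and 16.6 on villus and 573.1, 353.6 and 451.3 on hair follicle arrays. The hair follicle arrays lay above and the villus arrays below all others, and the GFP groups overlapped. The difference was 4.87-fold over GFPbright (log2 2.28, standard error 0.22, adjusted p = 8.37e-07 from limma) and 27.4-fold over villus (log2 4.77, standard error 0.24, adjusted p = 4.21e-10 from limma). Kif7, a ciliary kinesin of the Hedgehog pathway, read 63.2, 59.6 and 36.4 on hair follicle arrays against 6.7 to 10.8 on the 10 intestinal arrays (5.61-fold over GFPbright, log2 2.49, standard error 0.20, adjusted p = 1.28e-07 from limma). Kif3a, a motor of transport along cilia, read 53, 32.5 and 29.7 on hair follicle arrays against 14, 17.3, 20.4 and 14.9 on GFPbright (2.25-fold, adjusted p = 0.000175 from limma) and 11.3, 10.9 and 8.2 on villus. On the probe set used, its partner Kif3b was lower in hair follicle cells, 1.49-fold below GFPbright (adjusted p = 0.0346 from limma, but 0.194 without hair follicle 2 and 0.0629 without hair follicle 3) and 1.84-fold below villus (adjusted p = 0.00366 from limma). Its other probe sets gave 0.11, 0.18 and 0.05 against GFPbright, none of them called, and -0.20, -0.14 and -1.09 against villus. The direction of Kif3b against GFPbright thus depends on the probe set. Kif24, a centriolar kinesin, read 14, 25 and 14.5 on hair follicle and 12.2, 18.1 and 11.4 on villus arrays, and was at least 2.18-fold and 1.72-fold over GFPbright, but 2 of its other probe sets gave negative differences. Kif13a fell 1.76-fold from GFPbright to hair follicle cells and Kif2a 1.65-fold. Melanocyte markers were present in hair follicle cells (4 of 7 higher than in GFPbright, summed 751.0 to 964.0 against 59.3 to 80.6), and their part in these values was not tested.

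Between hair follicle cells and villus, both low in division genes, 16 members were higher in hair follicle cells (27.6%, against 26.9% of all genes) and 10 lower (17.2%, against 27.4%), shares near or below those of all genes. Of the 31 genes 10 were higher, namely Kif18a, Kif20b, Cenpa, Cenpe, Cenpf, Cenpk, Cenpn, Cenpp, Cenpq and Cenpt, and 1, Cenpl, was lower. The median of the 31 was 0.66 (-0.04 over all genes). A second, dimmer Cenpa probe set was not called between these groups (0.47, adjusted p = 0.199 from limma over probe sets).

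**Figure D5:**
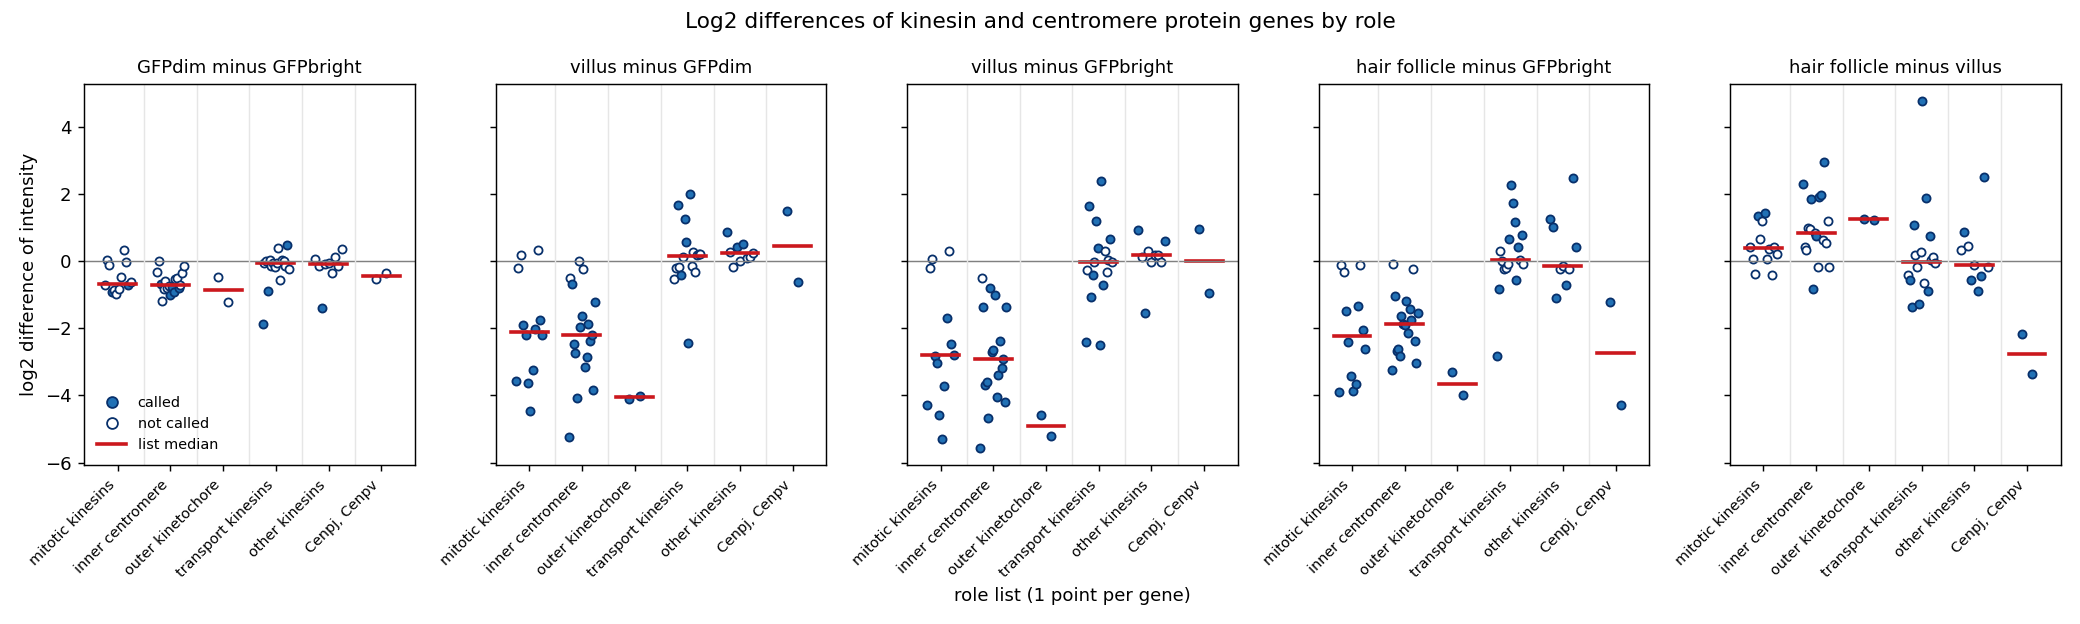
Log2 difference of intensity for each of the 58 members (1 point per gene, filled where called at an adjusted p under 0.05 from limma) by role in the 5 comparisons, with the list median as a red bar. Medians of mitotic kinesins and inner centromere genes are -0.67 and -0.72 between the GFP groups, -2.81 and -2.93 between villus and GFPbright, and -2.22 and -1.86 between hair follicle and GFPbright cells, while medians of transport kinesins stay within 0.15 of 0.

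Without hair follicle 2, 26 of the 31 genes were again lower in hair follicle cells than in GFPbright, with a median of -2.44. Against villus, 8 were then higher and 2 lower, with a median of 0.32, and Kif22, at 0.06 with all arrays, was called lower at -0.75 (adjusted p = 0.0158 from limma). Cenpa was still higher than in villus, at 1.34 (adjusted p = 0.00026 from limma) in place of 2.31, and Cenpe at 0.73 (adjusted p = 0.00648) in place of 1.26. Kif20b was at 0.71 (adjusted p = 0.0404) in place of 1.42, and Cenpk at 1.06 (adjusted p = 0.00243) in place of 1.85. Cenpf was not called, at 0.38 (adjusted p = 0.123) in place of 1.23, nor was Cenpn, at 0.34 (adjusted p = 0.225) in place of 0.76. Kif11, not called in either fit, moved from 0.41 to -0.12. Cenpl, lower with all arrays at -0.84, was not called without hair follicle 3 (-0.42, adjusted p = 0.176). Cenpt moved little, from 2.95 to 2.90.

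Genes that work with the members were counted on the same fits. Of 9 genes of the KMN network, which forms the microtubule-binding outer kinetochore, 1 was lower in GFPdim, all 9 were lower in villus and all 9 lower in hair follicle cells, each against GFPbright. Of all genes 10.4%, 26.3% and 29.1% were lower in these comparisons, so the single gene of the 9 in GFPdim (11.1%) is near the share of all genes. Spc25 had the largest fall in villus (36.8-fold, log2 -5.20, standard error 0.65, adjusted p = 8.51e-06 from limma), and Spc24 was at least 16-fold lower. Of 10 spindle checkpoint genes, 0, 10 and 8 were lower in these comparisons, with Bub1, a checkpoint kinase, at least 24.1-fold lower in villus and Zw10 and Mad1l1 not called in hair follicle cells. Mad1l1, counted among the 10 in villus, was not above the receptor level in GFPbright or villus. Without a block, 4 of these 10 reached an unadjusted p under 0.05 between the GFP groups. The share of all genes under that unadjusted limit is not given here, so nothing is drawn from this count. Of 6 genes of the chromosomal passenger complex and shugoshins, 1, 6 and 6 were lower, with Aurkb, its kinase, at least 18.8-fold lower in villus. Hjurp, Oip5 and Mis18a, genes for the loading of Cenpa, were counted together with Itgb3bp, an inner centromere gene outside the symbol rule. Of these 4 genes, 1, 4 and 4 were lower, with Mis18a 7.05-fold lower in villus. The 6 minus-end motors, light chains and adaptor moved differently. Against GFPbright, 2 of these 6 rose and 1 fell in GFPdim, 3 rose and 1 fell in villus, and 4 rose and 1 fell in hair follicle cells. The shares that rose were 33.3%, 50% and 66.7%, against 6.32%, 22.6% and 19.4% of all genes, and the share that fell was 16.7% each time, against 10.4%, 26.3% and 29.1%. Klc3, a kinesin light chain, was at least 34.1-fold higher in hair follicle cells than in GFPbright (log2 5.33, standard error 0.13, adjusted p = 3.43e-13 from limma), and Kifc3, a minus-end motor, was 5.61-fold higher in villus.

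Different probe sets of a gene did not always follow each other. The members had 117 probe sets in all, and 32 members had more than 1. Cenpo was the member whose probe sets passed in opposite directions. In hair follicle cells against GFPbright its brightest probe set gave -1.20 (adjusted p = 0.000421 from limma over probe sets) and another gave 1.07 (adjusted p = 0.000163), and in villus against GFPbright they gave -1.01 and, for a probe set below the receptor level, 0.30. The direction of Cenpo therefore depends on the probe set. Among the genes and comparisons chosen for full values, other probe sets also gave the opposite sign without both passing the threshold. This held for Cenpf, Kif13b, Kif17, Kif18a, Kif1b, Kif21a, Kif23, Kif24 and Kif2a, each in at least 1 comparison. The list does not cover all members. Further cases were Kif3b between hair follicle and GFPbright cells (-0.57 against 0.05 to 0.18) and Kif13a between the GFP groups (-0.05 against 0.67 and 0.21).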

How the data were processed

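RNA of 4 GFPbright, 3 GFPdim, 3 villus and 3 hair follicle GFPdim samples was hybridised to Affymetrix HT MG-430 PM arrays. The authors computed 1 intensity per probe set with the RMA-sketch algorithm of Affymetrix Power Tools (version not given in the sources used here), which corrects background, normalizes between arrays and summarizes probes; the deposited intensity values are linear, with 1 column per array. Because normalization sets arrays to a common scale, differences in total RNA per cell are not retained.

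Of 45141 probe sets, 28898 named 1 gene in the platform annotation, 551 several and 15692 none. Where several named a gene, that of highest mean log2 intensity over the 13 arrays stood for it, which gave 17097 genes. Log2 values were fitted with limma 3.58.1 (lmFit and eBayes, R 4.3.3) with the group as the factor and Benjamini-Hochberg adjustment over all genes, at a threshold of 0.05. Tables and figures were made with Python 3.11.15 (pandas 2.3.3, matplotlib 3.10.9). All 58 members matched RefSeq by gene identifier. Sort codes differ between replicates of the GFP groups, and nothing states what separates the villus samples, so p-values measure the spread between these samples, which may be technical. Within groups arrays correlated at 0.978 to 0.994. No depth applies to arrays, and their number limits the precision.

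In 3 sorts, by a code in the titles, both GFPbright and GFPdim arrays were made. Their deviations from the group means correlated at 0.291, 0.451 and 0.320, so the sort was also used as a replicate block. Alternatives were the probe set with the largest variance, other probe sets, an offset of 16, quantile normalization, a filter on dim genes, a variance trend, array weights, fits of 2 groups and leaving out each array. On simulated data with 17097 genes the fit recovered 75 to 83% of changes of 1 and 98 to 99% of changes of 2 on the log2 scale over the 5 comparisons, with 3.23 to 5.88% false calls. The simulated noise was independent and normal, with 1 spread per gene in all groups and no shared sorts. It holds no correlated sorts and no array like hair follicle 2, so recovery among the members may differ. Members with full values were, per comparison and role, up to 4 called genes with the largest difference, up to 2 of opposite direction, genes whose probe sets oppose each other, and Kif11, Kif23, Cenpa, Cenpe and Cenpf. Further genes were named after their values were seen. The members, role lists and marker lists were chosen with earlier results of these data known.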

Additional observations from a re-analysis of the deposited data

Results flagged for a closer look

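In the GFPbright group, the only group with enough arrays for a test of single outlying arrays, 3 of 58 members had 1 array far from the other 3, where chance flags about 1 in 20 groups. On the log2 scale, the gap between Kif11 on GFPbright 4 (93.5) and the nearest of the other GFPbright arrays (121.4 to 125.0) was 0.899 of the range of the group. For Kif16b on GFPbright 4 (48.5, with 34.8 to 35.4 on the others) it was 0.949. For Kif21b on GFPbright 3 (20.8, with 15.2 to 16 on the others) it was 0.836.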

How the results depend on the processing

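The counts of members called in villus and in hair follicle cells stayed within 1.5 times under every alternative that was run. Those between the GFP groups did not. The 10 members lower in GFPdim became 17 with array quality weights, 25 in a fit of the 2 groups alone and 26 with the sort as a replicate block, and 6 (without GFPdim 1) to 21 (without hair follicle 2) when single arrays were left out. The 1 member higher in GFPdim became 0 with the probe set of largest variance, 2 with array quality weights and 0 with the replicate block, and remained at 1 whichever array was left out. Members higher in hair follicle cells than in villus, 16 in all, ranged from 12 (without villus 2) to 24 (without hair follicle 3).

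For the genes given with full values, 2186 alternative differences were computed: 2025 kept direction and side of the threshold, 119 lost the call, 14 gained it and 28 turned. Without other probe sets, 3 turned: Kif11 between hair follicle and villus without hair follicle 2 (-0.12, and 0.88 without hair follicle 3), and Kif23 between the GFP groups without GFPbright 3 (-0.12) and with the probe set of largest variance (-0.84). Other probe sets of the same gene turned the rest, and the cause was not tested. Between the GFP groups they gave 0.03 and 0.06 for Cenpo, 0.07 for Kif18a and -0.84 for Kif23. Between villus and GFPbright they gave 0.25, 0.30 and 0.02 for Cenpo, -0.08 for Kif13b, 0.02 for Kif21a, and -0.38 and -0.24 for Kif24. Between villus and GFPdim they gave 0.11 for Kif17, 0.02 for Kif21a, and -0.19 and -0.37 for Kif24. Between hair follicle and GFPbright they gave 1.07, 0.52 and 0.14 for Cenpo, -0.30 and -0.07 for Kif24, and 0.29 and 0.18 for Kif2a. Between hair follicle and villus they gave -0.23 for Cenpf, 0.38 for Kif1b and 0.15 for Kif2a. The receptor level bounds the folds of dim genes, and with 3 or 4 arrays per group small differences such as those between the GFP groups were the least settled.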
